A study of Mus musculus with 6 samples.

Results

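The 10 genes described here encode the inhibitory receptors, checkpoint ligands and phosphatases that restrain macrophages: the receptors Sirpa, Cd200r1, Siglecf, Siglece, Pirb and Lair1, the ligands Cd274 (PD-L1) and Pdcd1lg2 (PD-L2), and the phosphatases Ptpn6 (SHP-1) and Inpp5d (SHIP-1). They were picked by name, each matched 1 row of the deposited table of 24341 genes, and all 10 passed the filter on low values that left 10800 genes to test. Alveolar macrophages (AMs), the resident macrophages of the lung air spaces, were taken by bronchoalveolar lavage (BAL) from female CD44+/+ and CD44-/- mice on the C57BL/6 strain, aged 6 to 10 weeks. CD44 is the cell surface receptor for hyaluronan and is deleted throughout these CD44-/- mice, in the lung as well as in the AMs. Cd44 itself had 540.1, 535 and 527 FPKM in CD44+/+ and 54.7, 54.5 and 51.4 FPKM in CD44-/- AMs, and it fell by 3.32 on the log2 scale (limma adjusted p = 4.19e-09). RNA was sequenced in 3 samples per genotype, each pooled from more than 1 mouse, so the error given is the spread between pools, and values of a genotype are listed in the order of replicates 1, 2 and 3. The pools did not all come from the same number of mice, and the fits did not weigh them by it. No sort of the lavage cells before RNA extraction is described in the sources used here. Values are FPKM, the fragments of a transcript scaled to its length and to the mapped total of the sample, so levels of different genes may be set side by side.

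Inhibitory receptors of myeloid cells carry tyrosine motifs in their tails that, once phosphorylated, recruit SHP-1 or SHIP-1, which remove phosphates from signaling proteins or from the lipid messenger PIP3. CD200R1 is an exception, since it signals through the adaptors Dok2 and Dok1 and the Ras inhibitor RasGAP (Rasa1). In the lung, SIRPα binds CD47 and surfactant proteins, CD200R1 binds CD200 on the epithelium, the Siglecs bind sialic acid on neighboring cells, PirB binds MHC class I and LAIR-1 binds collagens, contacts that are known to restrain macrophages. PD-L1 and PD-L2 act outward, on the receptor PD-1 of T cells.

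The promoters of Siglece, which had the lowest p of the 10 genes, and of its neighbor and relative Siglecf are shown so that the pair can be compared, beside that of Pirb, which held the longer motif described here. The sequences are the 250 bases before the gene start in RefSeq (GRCm38.p6, the build of mm10), written 5′ to 3′ on the strand of the gene, with capitals at each GAGGAA on either strand (TTCCTC on the other strand), the core bound by PU.1, a transcription factor of macrophages. The Siglece window is chr7:43660162-43660411 on the minus strand, the Siglecf window is chr7:43351091-43351340 on the plus strand, and the Pirb window is chr7:3720383-3720632 on the minus strand.
Siglece: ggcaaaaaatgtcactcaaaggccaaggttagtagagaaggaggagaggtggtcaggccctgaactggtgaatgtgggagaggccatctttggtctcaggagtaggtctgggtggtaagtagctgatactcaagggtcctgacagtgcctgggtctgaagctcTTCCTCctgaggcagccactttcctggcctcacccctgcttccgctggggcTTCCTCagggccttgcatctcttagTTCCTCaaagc
Siglecf: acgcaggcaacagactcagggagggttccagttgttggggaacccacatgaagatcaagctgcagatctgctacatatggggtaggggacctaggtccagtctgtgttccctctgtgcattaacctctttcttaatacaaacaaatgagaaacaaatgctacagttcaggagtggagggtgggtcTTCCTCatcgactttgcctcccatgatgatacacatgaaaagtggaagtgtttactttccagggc
Pirb: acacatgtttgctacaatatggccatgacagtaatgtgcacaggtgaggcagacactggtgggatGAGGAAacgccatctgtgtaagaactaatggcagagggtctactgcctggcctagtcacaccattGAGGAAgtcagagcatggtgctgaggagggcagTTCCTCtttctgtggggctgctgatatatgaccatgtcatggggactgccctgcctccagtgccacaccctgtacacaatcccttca
The Siglece window held 3 copies of GAGGAA, all on the opposite strand, and the Siglecf window held 1, also on the opposite strand. The Pirb window held 3, of which 1 continued into the longer form GAGGAAGT. RefSeq promoters matched 8 of the 10 genes, and 6 of these 8 held GAGGAA, which was present in 23.3% of 32851 promoter windows of the same length. The longer GAGGAAGT, a form that contains GAGGAA, was found in 2 of the 8 (Pirb and Inpp5d) and in 2.44% of all windows. These matches describe the letters of the windows and were not tied to any binding data.

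Each of the 10 genes was expressed in every sample, and their levels covered a wide range (plot of levels by gene). Sirpa was the highest, with 649 ± 7.76 FPKM (SD, n = 3) in CD44+/+ AMs and rank 81 among the 10800 tested genes. Siglecf followed at 258 ± 9.27 FPKM (SD, n = 3) and Ptpn6 at 218 ± 9.59 FPKM (SD, n = 3). Pirb, Cd274 and Cd200r1 lay close together in CD44+/+ AMs, at 79.5 ± 6.73, 75.8 ± 7.77 and 72.1 ± 5.87 FPKM (SD, n = 3 each). Inpp5d had 56.3 ± 0.304 FPKM (SD, n = 3), Siglece 40.6 ± 4.51 FPKM (SD, n = 3) and Lair1 35.1 ± 2.31 FPKM (SD, n = 3). Pdcd1lg2 stood far below the rest, at 2.87 ± 0.308 FPKM (SD, n = 3). Over all 6 samples, the ranges of neighbors in this order overlapped for Pirb and Cd274, for Cd274 and Cd200r1, and for Siglece and Lair1, so these pairs were not separated in level. The other 6 pairs of neighbors did not overlap, and the widest step was from Lair1 to Pdcd1lg2, with a mean 11.7 times as high for Lair1.

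**Figure D1:**
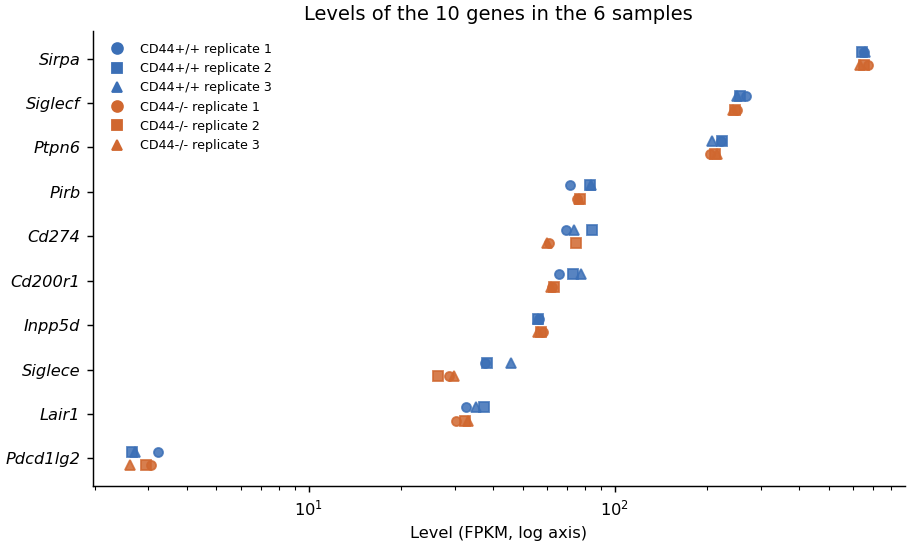
Levels in FPKM (log axis) of the 10 genes in each of the 6 samples, ordered by mean level, with blue for CD44+/+ and orange for CD44-/- and a marker shape for each replicate number. The genes run from Sirpa, above 633 FPKM in every sample, to Pdcd1lg2, at or below 3.22 FPKM, and the genotypes lie apart for Siglece and Cd200r1.

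Of the 10 genes, 0 had an adjusted p under 0.05 in limma, against 0.111% of all tested genes (12 of 10800), or 0.037% counting only those lower in CD44-/- AMs. At an unadjusted p under 0.05 there were 2, Siglece and Cd200r1, both lower in CD44-/- AMs, beside 7.69% of all genes in either direction and 2.94% in the lower one. The same 2 genes had no overlap between genotypes, against 11.6% of all genes, and 4.88% were lower without overlap. A negative log2 fold change was found in 7 of the 10 genes and in 44.2% of all genes, and the median was -0.06 over the 10 and 0.01 over all genes. With the replicate number as a block, 4 genes had an unadjusted p under 0.05, Cd274 and Lair1 being the added ones, beside 9.71% of all genes in that fit, and none of the 10 had an adjusted p under 0.05. Without CD44+/+ replicate 1 there were 5 genes with an unadjusted p under 0.05, with Pirb also among them, and 5 without overlap, while the shares of all genes were then 12.5% and 30.3%.

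**Figure D2:**
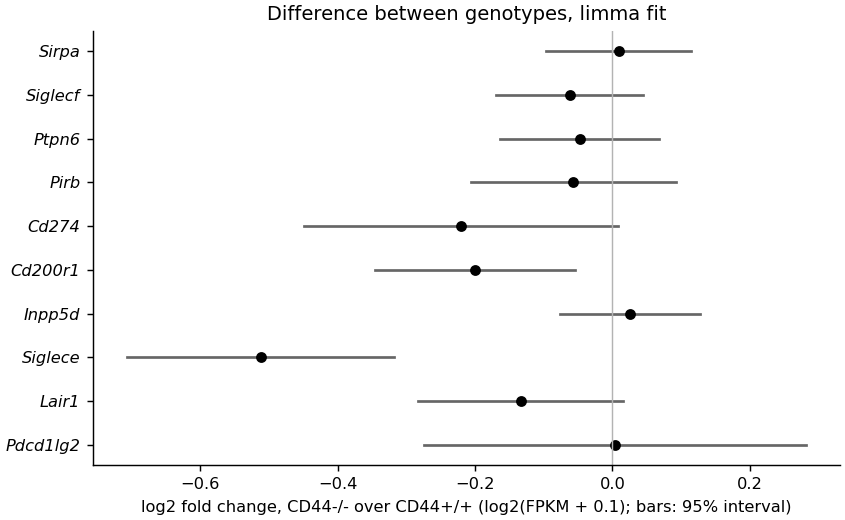
Log2 fold change of CD44-/- over CD44+/+ AMs on the log2(FPKM + 0.1) scale for the 10 genes (points), with the 95% interval of the limma fit (bars, 3 samples per genotype). The intervals of Siglece (-0.71 to -0.32) and Cd200r1 (-0.35 to -0.05) lie below 0, and the other 8 include 0.

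Siglece, the Siglec-E gene on chromosome 7 from 43651070 to 43660161 in mm10, encodes a sialic acid receptor that recruits SHP-1 and had the lowest p of the 10 genes. It had 37.8, 38.2 and 45.8 FPKM in CD44+/+ pools and 28.8, 26.4 and 29.9 FPKM in CD44-/- pools. All 3 CD44-/- samples thus lay below all 3 CD44+/+ samples, and CD44+/+ replicate 3 was the highest of all. The CD44-/- mean of 28.4 ± 1.79 FPKM (SD, n = 3) was 69.9% of the CD44+/+ mean. The log2 fold change was -0.51 (standard error 0.09, limma adjusted p = 0.114, unadjusted p = 0.000253), the 24th lowest p of all tested genes. It was negative in every alternative fit, from -0.56 to -0.42 with each sample left out, while its adjusted p went from 0.0636 to 0.730 over the alternatives and was 0.0832 with the replicate block. An exact two-sided permutation test gave p = 0.1, the smallest that 3 samples against 3 can give. In bulk RNA, fewer cells of a type and less RNA per cell cannot be told apart.

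Among the tested genes whose centered log2 values over the 6 samples lay nearest to those of Siglece were the keratin gene Krt79 (mean absolute difference 0.068) and the adhesion protein gene Lrfn4 (0.071). Krt79 had 265, 269 and 314 FPKM in CD44+/+ pools and 224, 203 and 225 FPKM in CD44-/- pools. Lrfn4 was low, at 1.42, 1.26 and 1.61 FPKM against 1.03, 1.02 and 1.13 FPKM. Both were, as Siglece, highest in CD44+/+ replicate 3 and without overlap between genotypes, and their adjusted p in limma were 0.185 and 0.619. They were picked for this likeness, so it is a description only.

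Siglecf, which encodes the Siglec used to identify mouse AMs, lies on chromosome 7 from 43351341 to 43359531, with 292 kb between it and Siglece. Its 268, 256 and 250.2 FPKM in CD44+/+ pools overlapped with 252, 247 and 243 FPKM in CD44-/- pools. Siglecf differed by -0.06 on the log2 scale (standard error 0.05, limma adjusted p = 0.877), and the 95% interval ran from 88.9% to 103% of the CD44+/+ level. After median-ratio scaling the genotypes no longer overlapped for Siglecf, nor for 13.4% of all genes. Eosinophils also carry Siglec-F, and of their 6 markers Prg2, Epx and Prg3 were listed at 0 in every sample while Ccr3 and Il5ra stayed at or below 0.0552 FPKM. Ear6, the only one tested and listed in a joint row with Ear7, had 6.86 to 13.8 FPKM in CD44+/+ and 12.2 to 18.9 FPKM in CD44-/- AMs and differed by 0.72 on the log2 scale (standard error 0.24, limma adjusted p = 0.499, unadjusted p = 0.0173), and its part in the level of Siglecf was not tested. The ratio of Siglecf to Siglece within a sample was 7.10, 6.70 and 5.46 in CD44+/+ pools and 8.74, 9.35 and 8.13 in CD44-/- pools, without overlap. This was the lowest p of the 6 ratios compared (exact two-sided permutation test, p = 0.1, adjusted over the 6 ratios 0.45).

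**Figure D3:**
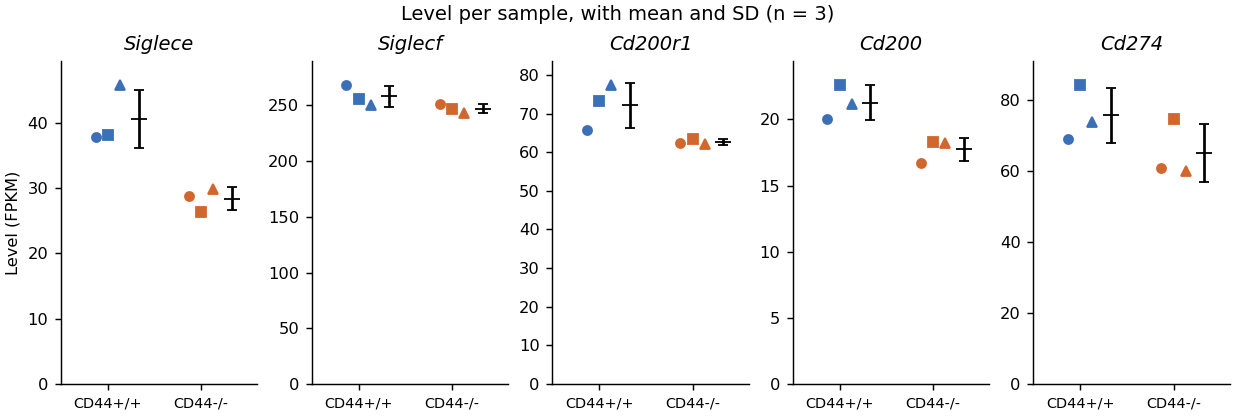
Levels in FPKM of Siglece, Siglecf, Cd200r1, Cd200 and Cd274 in each sample (circle, square and triangle for replicates 1, 2 and 3), with the mean and SD of each genotype (n = 3) beside the points. The CD44-/- samples of Siglece, Cd200r1 and Cd200 lie below all CD44+/+ samples, whereas those of Siglecf and Cd274 overlap with them.

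Cd200r1, on chromosome 16 from 44765736 to 44794978, was the second gene without overlap. It had 65.8, 73.2 and 77.4 FPKM in CD44+/+ pools and 62.5, 63.4 and 62 FPKM in CD44-/- pools, so the gap between the nearest samples was small. The CD44-/- mean of 62.6 ± 0.71 FPKM (SD, n = 3) was 86.8% of the CD44+/+ mean, a log2 fold change of -0.20 (standard error 0.06, limma adjusted p = 0.473, unadjusted p = 0.013). After quantile normalization the genotypes overlapped in Cd200r1 RNA. At the protein level, measured by flow cytometry, the paper reports slightly more CD200R on CD44-/- AMs. Its ligand gene Cd200 was also expressed, with 20.0, 22.6 and 21.2 FPKM in CD44+/+ pools and 16.7, 18.3 and 18.2 FPKM in CD44-/- pools. These values did not overlap either, and the log2 fold change of Cd200 was -0.26 (standard error 0.07, limma adjusted p = 0.360, unadjusted p = 0.0047). Dok2, the adaptor that binds the tail of CD200R1, had 28.5, 28.2 and 28.6 FPKM against 20.8, 25.5 and 24.2 FPKM, again without overlap. Dok2 differed by -0.28 on the log2 scale (standard error 0.08, limma adjusted p = 0.371, unadjusted p = 0.0063). Dok1 and Rasa1 overlapped, with log2 fold changes of -0.06 and -0.04.

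Of the activating relatives of CD200R1, 2 were expressed. Cd200r4, at 102, 103 and 98.7 FPKM in CD44+/+ pools and 105, 106 and 105 FPKM in CD44-/- pools, was higher than Cd200r1 in each sample, and its log2 fold change was 0.06 (standard error 0.04, limma adjusted p = 0.884). Cd200r2 was near the filter, with 0.748, 0.733 and 1.22 FPKM against 1.51, 1.53 and 1.5 FPKM, without overlap (log2 fold change 0.72, standard error 0.21, limma adjusted p = 0.412), and with a pseudocount of 1 FPKM the fold change was 0.41. Cd200r3 stayed at or below 0.071 FPKM in each sample and was not tested. Members of this family have similar sequences, so reads may be shared between them.

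Sirpa, on chromosome 2 from 129592835 to 129632228, encodes the receptor for the "do not eat me" signal CD47. Its 649.9, 640.2 and 655 FPKM in CD44+/+ pools were matched by 671, 654 and 633 FPKM in CD44-/- pools, whose range enclosed that of the CD44+/+ samples. The log2 fold change was 0.01 (standard error 0.05, limma adjusted p = 0.989), the interval ran from 93.5% to 108% of the CD44+/+ level, and the sign turned with median-ratio scaling (-0.0057). Sirpa lies 26.7 Mb from Cd44 on the same chromosome. By flow cytometry, a measure of protein, the paper reports slightly more Sirpα and unchanged Siglec F on CD44-/- AMs. Cd47, with 258 to 287 FPKM over the 6 samples, had a log2 fold change of -0.04 (limma adjusted p = 0.959), and Sirpa was 2.26 to 2.52 times as high as Cd47 within a sample. Of the activating relatives, Sirpb1a had 57.0 ± 5.26 and 53.7 ± 2.27 FPKM (SD, n = 3 each) and overlapped. Sirpb1b had 21.4, 22.3 and 20.8 FPKM against 18.3, 20.3 and 19.9 FPKM with all CD44-/- values lower, and differed by -0.14 on the log2 scale (standard error 0.06, limma adjusted p = 0.660). Reads of Sirpa and the Sirpb1 genes may be split between similar sequences.

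Pirb and Lair1 lie on chromosome 7, from 3711409 to 3720391 and from 4003402 to 4063204. Pirb, the receptor for MHC class I, had 71.7, 83.2 and 83.5 FPKM in CD44+/+ pools and 75.4, 76.8 and 76.4 FPKM in CD44-/- pools. CD44+/+ replicate 1 was the lowest of the 6, and the genotypes overlapped, with a log2 fold change of -0.06 (standard error 0.07, limma adjusted p = 0.955). With each sample left out it ranged from -0.13 without CD44+/+ replicate 1 to -0.020 without CD44+/+ replicate 3. Among the activating Pira genes, which are so alike in sequence to Pirb that fragments may be assigned to any of them, Pira6 (45.3 ± 3.73 and 46.6 ± 3.25 FPKM, SD, n = 3 each), Pira7 and Pira2 overlapped. Pira11 had 1.68, 1.94 and 0.152 FPKM against 0.0017, 0.00128 and 0.245 FPKM, so that 1 CD44+/+ sample lay among the CD44-/- values (log2 fold change -2.67, standard error 0.84, limma adjusted p = 0.463). This fold depended on the pseudocount, being -0.95 with 1 FPKM and -4.65 with 0.01 FPKM added in place of 0.1. Pira1, and a row that the table gives jointly to Pira4 and Pira7 beside the row of Pira7 alone, stayed at or below 0.000122 FPKM in each sample and were not tested. The MHC class I genes were high, with 453 to 486 FPKM for H2-K1, 919 to 1020 FPKM for H2-D1 and 1840 to 2100 FPKM for B2m over all samples. H2-D1 was without overlap and 0.09 higher on the log2 scale in CD44-/- AMs (limma adjusted p = 0.727).

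Lair1, which binds collagens and surfactant protein D, had 32.7, 37.3 and 35.2 FPKM in CD44+/+ pools and 30.3, 32.3 and 33.1 FPKM in CD44-/- pools. Only CD44-/- replicate 3 reached into the CD44+/+ range, by exceeding CD44+/+ replicate 1. Its estimate was a log2 fold change of -0.13 (standard error 0.07, limma adjusted p = 0.699), with an interval from 82.2% to 101% of the CD44+/+ level.

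Cd274 and Pdcd1lg2 are neighbors on chromosome 19, from 29367455 to 29388095 and from 29410919 to 29471161, and the kinase gene Jak2 lies 54.4 kb from Cd274. PD-L1 transcripts were by far the more abundant, 19.9 to 31.7 times those of Pdcd1lg2 within a sample. Cd274 had 69.1, 84.3 and 73.9 FPKM in CD44+/+ pools and 60.8, 74.6 and 60.0 FPKM in CD44-/- pools. Replicate 2 was the highest of its genotype in both, and the genotypes overlapped through CD44-/- replicate 2. The log2 fold change was -0.22 (standard error 0.10, limma adjusted p = 0.672, unadjusted p = 0.0569). With each sample left out it ranged from -0.32 without CD44-/- replicate 2 to -0.14 without CD44+/+ replicate 2. With the replicate block its unadjusted p was 0.00307 and its adjusted p 0.236. Pdcd1lg2 had 3.22, 2.66 and 2.72 FPKM against 3.05, 2.95 and 2.61 FPKM, a log2 fold change of 0.00 (standard error 0.12, limma adjusted p = 0.999) whose interval was as wide as 82.7% to 122% of the CD44+/+ level. Its sign turned with scaling (-0.011 after median-ratio scaling and -0.044 after quantile normalization).

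The receptor of both ligands, Pdcd1 (PD-1), was nearly absent as RNA, at or below 0.118 FPKM in each sample and listed at 0 in CD44+/+ replicate 1 and CD44-/- replicate 2. By flow cytometry, which measures protein, the paper reports increased PD-1 on CD44-/- AMs. Of the other partners, Cd80, a costimulatory protein that binds PD-L1 on the same cell, had 10.6, 9.30 and 9.55 FPKM in CD44+/+ pools and 12.2, 11.2 and 11.2 FPKM in CD44-/- pools. It did not overlap between genotypes (log2 fold change 0.23, standard error 0.08, limma adjusted p = 0.484, unadjusted p = 0.0154). Rgmb, a ligand of PD-L2, overlapped at 11.6 to 14.1 FPKM. The 9 genes of the interferon γ route to PD-L1, among them its receptor genes Ifngr1 and Ifngr2, Jak1, Jak2 and Irf1, overlapped in each case, with log2 fold changes from -0.09 to 0.14. Of all genes, 11.6% were without overlap. Jak2 had 14.5 ± 0.863 and 14.4 ± 1.29 FPKM (SD, n = 3 each).

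**Figure D4:**
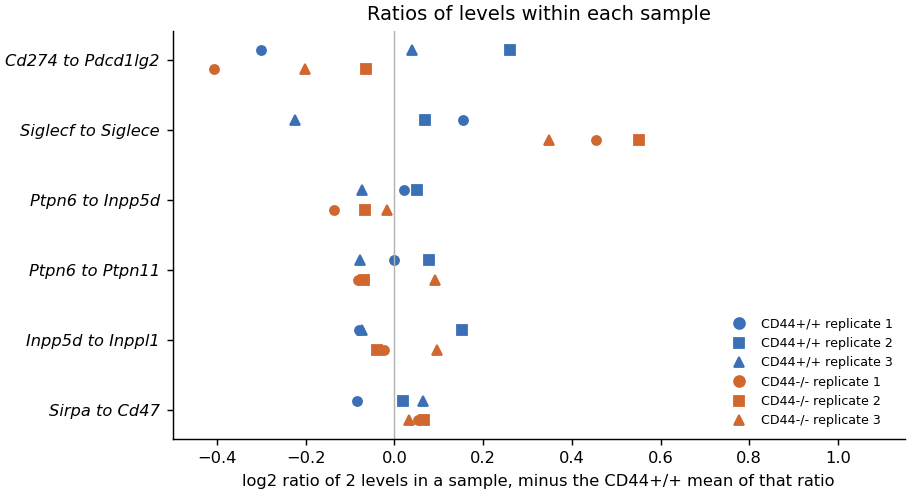
Log2 ratio of the levels of 2 genes within each sample, minus the mean of that ratio over the CD44+/+ samples, for the 6 ratios compared (blue CD44+/+, orange CD44-/-, marker shape for replicate number). For Siglecf to Siglece the CD44-/- samples lie to the right of all CD44+/+ samples, and the other 5 ratios overlap.

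The phosphatase genes overlapped between genotypes. Ptpn6 (SHP-1), on chromosome 6 from 124720707 to 124738714, had 223, 225 and 207 FPKM in CD44+/+ pools and 205, 213 and 215 FPKM in CD44-/- pools. The log2 change of Ptpn6 was -0.05 (standard error 0.05, limma adjusted p = 0.942) with an interval from 89.3% to 105% of the CD44+/+ level. Inpp5d (SHIP-1), on chromosome 1 from 87620312 to 87720507, had 56.7, 56.1 and 56.3 FPKM against 58.2, 57.5 and 56.3 FPKM. The log2 fold change of Inpp5d was 0.03 (standard error 0.04, limma adjusted p = 0.971) with an interval from 94.8% to 109%. Both were higher than their broadly expressed relatives, since Ptpn6 was 9.83 to 11.1 times as high as Ptpn11 (SHP-2) and Inpp5d was 5.89 to 6.92 times as high as Inppl1 (SHIP-2) within a sample. The ratios Ptpn6 to Inpp5d (3.52 to 4.01), Ptpn6 to Ptpn11 and Inpp5d to Inppl1 overlapped between genotypes, with exact two-sided permutation p from 0.3 to 0.9.

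The rest of the pathway was read from lists of genes (plot of log2 fold changes by list). In none of the lists did a gene have an adjusted p under 0.05 in limma. Among 24 other inhibitory receptors, 16 were tested, 0 had an unadjusted p under 0.05 (7.69% of all genes), and the median log2 fold change was 0.06, with 5 lower and 11 higher in CD44-/- AMs. The highest of these were Lilrb4a (142 and 145 FPKM, genotype means for CD44+/+ and CD44-/-), the Fc receptor gene Fcgr2b (130.3 and 146 FPKM) and Pilra (121 and 112 FPKM). Cd22 (54.5 ± 0.453 and 57.1 ± 0.668 FPKM, SD, n = 3 each) and the low Siglecg (0.470 ± 0.148 and 0.702 ± 0.0259 FPKM, SD, n = 3 each) were the 2 without overlap, both higher in CD44-/- AMs, and both with an adjusted p of at least 0.708. These 2 of 16 stand beside 11.6% of all genes without overlap, and Cd33, another Siglec gene of the list, overlapped at 58.1 ± 2.21 and 58.6 ± 2.62 FPKM (SD, n = 3 each). The T cell receptors Tigit, Ctla4 and Cd160 stayed at or below 0.121 FPKM and Klrg1 was listed at 0, while Havcr2 (Tim-3) had 79.1 and 83.0 FPKM (genotype means).

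Of 24 activating counterparts and adaptors, 22 were in the table and 18 were tested, 9 higher and 9 lower, with 2 at an unadjusted p under 0.05 (Cd200r2 and Pira11), beside 7.69% of all genes, and 3 without overlap (Cd200r2, Cd200r4 and Sirpb1b), beside 11.6%. The adaptors that pair with such receptors were among the most abundant transcripts, with 1660 to 1830 FPKM for Tyrobp (DAP12) and 897 to 1000 FPKM for Fcer1g over all samples, and both overlapped. Of 12 other checkpoint and costimulatory ligands, 6 were tested, 3 of them lower. Cd276 (B7-H3) had 2.63, 2.99 and 2.87 FPKM in CD44+/+ pools and 3.45, 3.84 and 4.17 FPKM in CD44-/- pools, without overlap (log2 fold change 0.42, standard error 0.11, limma adjusted p = 0.364, unadjusted p = 0.0051). Of 14 other inhibitory signaling genes, all tested, 10 were lower and 4 higher, while 44.2% of all genes were lower. Their median log2 fold change was -0.05, and Dok2 alone was without overlap, beside 11.6% of all genes. Ptprc (CD45) had 247 ± 14.1 and 238 ± 1.78 FPKM (SD, n = 3 each) and overlapped. Of 8 partners of the 10 genes, 7 were tested, with 5 higher and 2 lower, and 3 were without overlap (Cd200, Cd80 and H2-D1), beside 11.6% of all genes.

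**Figure D5:**
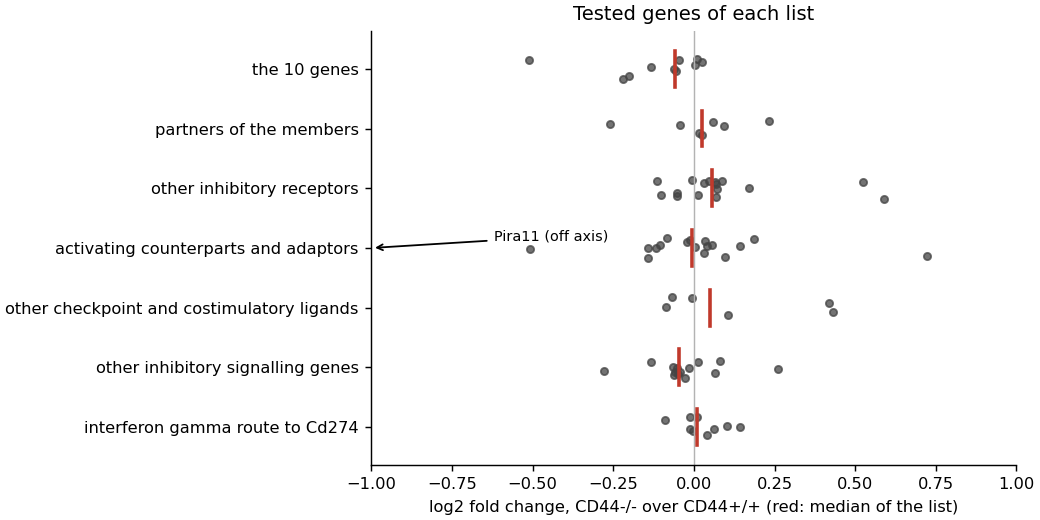
Log2 fold changes of CD44-/- over CD44+/+ AMs for the tested genes of the 10-gene set and of each pathway list (points), with the median of each list as a red line. Medians lie between -0.06 and 0.06, Siglece is the leftmost point of the 10-gene set, and Pira11, at -2.67 with the pseudocount of 0.1 FPKM, lies off the axis in the direction of the arrow.

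Markers of AMs were high in all 6 samples, with 10300.0 to 14200.0 FPKM for Chil3 and, for Itgax (CD11c), 435 to 495 FPKM. None of the 12 AM markers had an adjusted p under 0.05 in limma, and 1 (Krt79, lower in CD44-/- AMs) had an unadjusted p under 0.05, beside 7.69% of all genes. No overlap between genotypes was seen in 3 of these 12 (Itgax higher, Mrc1 and Krt79 lower), beside 11.6% of all genes. In the lists of other cell types 0 genes had an adjusted p under 0.05. Of 3 tested alveolar type 2 genes, all higher in CD44-/- AMs (median 1.24 on the log2 scale), Sftpb and Sftpc had an unadjusted p under 0.05. Of 6 neutrophil genes, 3 were higher and 3 lower, with Csf3r and Mmp8 at an unadjusted p under 0.05 among the higher ones. Both counts stand beside 7.69% of all genes. Of 2 monocyte genes, Fn1 was lower with an unadjusted p of 0.00973 and Ccr2 was 0.18 higher on the log2 scale. In summed FPKM, markers of neutrophils went from 62.6 to 102 in CD44+/+ and from 74.7 to 84.9 in CD44-/- samples, those of monocytes from 310.2 to 433 and from 226 to 298, with most of this from Fn1, and those of eosinophils from 6.89 to 13.8 and from 12.3 to 18.9, almost all from Ear6. Summed markers of T cells stayed at or below 2.23, of B cells at or below 0.588 and of dendritic cells at or below 9.78 FPKM. Markers of alveolar type 2 cells summed to 9.44 to 20.0 and 16.4 to 87.2 FPKM, those of airway secretory cells to 792 to 1283 and 605 to 1023 FPKM, and those of erythroid cells to 14.7 to 124 and 17.5 to 336 FPKM. The CD44-/- sums for alveolar type 2 cells were 30.2, 16.4 and 87.2 FPKM, highest in replicate 3. All 5 tested airway secretory genes were lower in CD44-/- AMs (median -0.34 on the log2 scale), beside 44.2% of all genes. All 5 tested erythroid genes were higher (median 0.36). In both lists every gene overlapped and no unadjusted p was under 0.05. The part of these other cells in the differences above was not tested. Depth relative to CD44+/+ replicate 1, read from the steps between low values, was 0.809 to 1.05 and lowest in CD44-/- replicate 2. The number of reads was not used here, so no interval for counting error is given.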

How the data were processed

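The authors sequenced RNA of lavage cells from 3 CD44+/+ and 3 CD44-/- samples as stranded, paired-end libraries, used STAR for alignment to mm10 and Cufflinks for quantification, and the deposited table gives FPKM for 24341 genes. Whether fragments were counted by strand is not given in the sources used here. Values follow the gene identifier of each row; the second name and position columns of the table are in another order (0 rows match), so positions were taken from GENCODE vM21 (GRCm38). The deposited fold changes and p-values of the authors' own comparison were not used. The table holds 101 rows with more than 1 gene name, and 1 gene with a missing value was left out.

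The 10800 genes whose mean over the samples was 0.5 FPKM or more were compared on log2(FPKM + 0.1) with limma 3.58.1 in R 4.3.3 (lmFit, eBayes with trend, two-sided, Benjamini-Hochberg over all tested genes). Intervals are 95% intervals of that fit. Ratios of levels were compared by exact two-sided permutation tests. The smallest p with 3 samples against 3 is 0.1. Tested on simulated data with the spread of these samples, the CD44-/- against CD44+/+ fit of 10800 genes called 62 of 100 genes simulated with a log2 change of 0.5, 88 of 100 with a log2 change of 1, and 6 of 10600 left unchanged. Noise was drawn independently for each gene. More genes were called there than the 12 in the data, so the adjusted p was less strict. These shares therefore do not give the rate of detection in the data.

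Nothing in the sources says that same-numbered samples were collected together, but their deviations from the genotype means had correlations of 0.212, 0.132 and 0.211 across the tested genes, so they were taken as pairs in a fit with the replicate number as a block. Genes named beside the 10 were the targeted gene, partners and close relatives, and in each list the genes with an adjusted p under 0.05 and up to 3 with the largest difference without overlap; other genes, such as the most abundant of a list, were named after their values were seen. The 10 genes and all lists were chosen with earlier results of these data known. For Siglece, the genes with the smallest mean absolute difference of centered log2 values were also named, and 1 of these 3 is not reported here.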

Additional observations from a re-analysis of the deposited data

How the results depend on the processing

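None of the 10 genes had an adjusted p under 0.05 in any of the 15 alternative fits: pseudocounts of 1 and 0.01, a stricter filter (1 FPKM), an open filter, scaling by median ratios, quantiles, eBayes with no trend or robust, the replicate block, and each sample left out. The log2 fold change kept its sign in 141 of 150 fits of the 10 genes. For the targeted gene, partners, relatives and genes picked from the lists by rule, it did so in 371 of 388. The 2 filters, the eBayes variants and the replicate block cannot change a log2 fold change, so the sign was fixed in advance in those fits. With median-ratio scaling 1 of the 10 genes was higher in CD44-/- AMs, and Sirpa (-0.0057), Pdcd1lg2 (-0.011) and Inppl1 (-0.00072) turned negative. After quantile normalization Pdcd1lg2 (-0.044), Tyrobp (-0.057) and Inppl1 (-0.0066) turned negative, and 1 of the 10 genes was without overlap (13.1% of all genes). The replicate block gave 4 of the 10 genes with an unadjusted p under 0.05 in place of 2 and changed no call of a named gene at an adjusted p under 0.05. The causes were not tested.

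With each sample left out, all genes called went from 6 to 36 (36 without CD44+/+ replicate 1, 7 without CD44+/+ replicate 2, 22 without CD44-/- replicate 1 and 6 without CD44-/- replicate 2). Of the 10 genes, 2 to 5 had an unadjusted p under 0.05 (4.99% to 12.5% of all genes) and 2 to 5 were without overlap (17.4% to 30.3% of all genes), the highest counts and shares being those without CD44+/+ replicate 1, and 1 to 3 were higher in CD44-/- AMs. Among the 10 genes and the others named by rule, the log2 fold changes that turned in sign ranged from -0.011 to 0.030 for Sirpa, -0.046 to 0.087 for Pdcd1lg2, -0.067 to 0.0016 for Cd47, -0.034 to 0.11 for Rgmb, -0.060 to 0.016 for Pira2, -0.00094 to 0.11 for Pira6, -0.00047 to 0.070 for Tyrobp, -0.0056 to 0.073 for Fcer1g, -0.059 to 0.012 for Ptpn11, -0.065 to 0.069 for Inppl1 and -0.084 to 0.037 for Jak2. Genes named after their values were seen are not covered by this list. Those of Siglecf (-0.084 to -0.034), Ptpn6 (-0.085 to -0.026), Cd200r1 (-0.26 to -0.15), Lair1 (-0.18 to -0.088) and Inpp5d (0.015 to 0.038) kept their sign. The log2 difference of the ratio Ptpn6 to Ptpn11 ranged from -0.075 to 0.019 and that of Inpp5d to Inppl1 from -0.031 to 0.088. The absolute depth is unknown, and 3 pools a genotype limit the precision to the intervals given.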
